A study of Mus musculus with 48 samples.

Results

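The genes described here are 9 genes of Wnt signalling in mouse C2C12 muscle cells: the secreted antagonists Sfrp1, Sfrp2, Frzb and Dkk2, the Dickkopf gene Dkk3, the receptor gene Lgr4, the transcription factor genes Tcf7l2 and Lef1, and the feedback gene Axin2. They were taken as every probe set whose only gene symbol in the annotation of the array platform is one of these names. This gave 21 probe sets of the 45101 on the array: 5 for Sfrp1, 4 for Tcf7l2, 2 each for Frzb, Dkk3, Axin2, Lgr4 and Lef1, and 1 each for Sfrp2 and Dkk2. Each probe set was kept apart, because the level of 1 probe set cannot be set against that of another.

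C2C12 is an established line of mouse myoblasts, muscle precursor cells that fuse into multinucleated myotubes when serum is withdrawn. RNA was measured on 48 MOE430v2 arrays in 16 groups of 3, and the 3 cultures of a group came from successive passages, so the p-values below describe the spread between passages of 1 line. The untreated cells were in 20% fetal bovine serum 24 h before induction and at 0 h, and in 2% horse serum at 0.5, 1, 1.5, 2, 3, 6, 9, 12, 24, 48, 96 and 144 h after it. The other 2 groups received 50 µM cycloheximide, which stops protein synthesis, from 1 h before the serum was lowered, and were taken at 1 h and 3 h. No group analysed here stayed in growth medium past 0 h or received the drug at 0 h, so low serum and time in culture cannot be told apart.

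Wnt proteins are secreted signals that bind Frizzled receptors and their co-receptors Lrp5 and Lrp6. In the canonical branch this stabilises β-catenin, which enters the nucleus and activates genes with the TCF and LEF factors, among them Tcf7l2 and Lef1. Sfrp1, Sfrp2 and Frzb carry a Frizzled-like domain and bind Wnt proteins outside the cell, whereas Dkk2 belongs to the Dickkopf proteins that act on the co-receptors. Dkk3 is the divergent Dickkopf member. Lgr4 is a receptor for R-spondins, which amplify Wnt signals, and Axin2 is a scaffold of the β-catenin destruction complex that is itself a classic target gene of the pathway. Wnt signals act on muscle precursors in the embryo and in regeneration.

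Promoters are shown for Sfrp2 and Lgr4, which had the largest falls among the 9 genes, and for Axin2, which had the largest rise after induction. Each runs from 250 bases before the transcription start to 50 bases after it, 5′ to 3′, from RefSeq (GRCm38.p6). Capitals mark the octamer ATTTGCAT and the CCAAT box on either strand.
Sfrp2, chr3:83766071-83766370, plus strand: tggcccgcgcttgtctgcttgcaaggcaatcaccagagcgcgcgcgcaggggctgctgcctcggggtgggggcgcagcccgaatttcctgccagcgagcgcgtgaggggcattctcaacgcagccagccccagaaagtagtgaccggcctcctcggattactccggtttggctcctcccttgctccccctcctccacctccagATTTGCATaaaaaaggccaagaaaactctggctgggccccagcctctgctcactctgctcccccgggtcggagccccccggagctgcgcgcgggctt
Lgr4, chr2:109917397-109917696, plus strand: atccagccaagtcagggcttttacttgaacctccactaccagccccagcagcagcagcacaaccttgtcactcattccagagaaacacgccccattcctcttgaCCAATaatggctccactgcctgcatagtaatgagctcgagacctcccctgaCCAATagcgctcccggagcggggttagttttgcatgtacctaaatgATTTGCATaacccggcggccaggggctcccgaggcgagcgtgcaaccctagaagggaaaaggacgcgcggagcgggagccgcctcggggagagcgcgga
Axin2, chr11:108920099-108920398, plus strand: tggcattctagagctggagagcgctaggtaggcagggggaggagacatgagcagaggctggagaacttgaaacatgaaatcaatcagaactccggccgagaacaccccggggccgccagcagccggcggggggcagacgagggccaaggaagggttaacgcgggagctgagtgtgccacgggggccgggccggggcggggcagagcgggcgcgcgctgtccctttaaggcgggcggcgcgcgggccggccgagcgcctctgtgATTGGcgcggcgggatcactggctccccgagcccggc

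The promoter table held 11 starts for 7 of the 9 genes: Sfrp2, Frzb, Dkk2, Axin2, Lgr4, Tcf7l2 and Lef1. The octamer stood 47 bases before the start of Sfrp2 and 49 bases before that of Lgr4, and in none of the other 9 promoters of these genes. Of all 32851 promoters in the table, 1.74% held it. CCAAT stood at 146 and 95 bases before the Lgr4 start, and its reverse complement ATTGG 65 bases before the Dkk2 start and 13 bases after the Axin2 start. Of all promoters, 37.4% held one of these. The octamer and CCAAT were looked for after the sequences had been seen. The E-box CANNTG, the motif of the myogenic factors, was in 72.3% of all promoters and the TCF and LEF core CTTTGA in 5257 of the 32851, both strands counted. Neither was in the windows of Sfrp2, Lgr4, Axin2 or Dkk2 or in the 2 of Tcf7l2. The Frzb promoter held 1 of each, and all 4 Lef1 starts had at least 1 E-box. The windows of Lef1 starts 1 and 2 overlap and share the E-box CAAGTG. These matches are of letters only, within 300 bases.

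The values deposited are log2 intensities after RMA, a method that corrects background, normalizes between arrays and summarises each probe set. Arrays of a group correlated with each other between 0.982 and 0.995. The 6 cycloheximide arrays had medians of 4.20 to 4.24, against at most 4.16 on the 42 others, so the cycloheximide comparisons were also made after quantile normalization of all arrays. Of 5 myoblast markers and 6 myotube markers none was below 5 in every group. Myog, the factor of terminal muscle differentiation, ran from 5.64 to 12.65 over the group means. Its mean went from 5.64 at 24 h before induction to 10.15 at 0 h, still in growth medium. Over the same day Acta1 went from 6.72 to 9.83, Mymk from 4.54 to 7.11 and Myh3 from 3.61 to 5.91. All 6 myotube markers had a higher mean at 0 h, so the 0 h reference had already moved towards the myotube pattern. Whether the Wnt gene changes before induction go with this was not tested. The 12 measured markers of adipocytes, bone and cartilage, and endothelium stayed under 5 in every group, as did 3 of 4 leukocyte markers. In such bulk samples fewer cells of a type and less RNA per cell cannot be told apart.

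The antagonist genes Sfrp1 and Sfrp2, the Dickkopf gene Dkk3 and the factor gene Tcf7l2 rose during the day in growth medium before induction. The rise was called in 2 of 5 Sfrp1, 1 of 1 Sfrp2, 2 of 2 Dkk3 and 2 of 4 Tcf7l2 probe sets. The Sfrp1 calls and that of Tcf7l2 1425229_a_at were lost on leaving out some single array. Mean levels of the myotube markers were also higher at 0 h than 24 h before. Sfrp1, Sfrp2, Dkk3 and Tcf7l2 were not called against 0 h in the first 12 h of low serum. They had fallen against 0 h in at least 1 probe set each at 48, 96 and 144 h. At 24 h 1 of 1 Sfrp2, 2 of 5 Sfrp1, 1 of 2 Dkk3 and 1 of 4 Tcf7l2 probe sets had fallen, and each of these calls was lost on leaving out some single array. Lgr4 did not pass the test before induction and fell from 9 h onwards. Axin2 was the only one of the 9 genes to rise by more than 0.5 after induction, late and by 1.51-fold at 144 h. This was in 1 of its 2 probe sets, whose untreated group means all lay under 5. The largest change after induction was that of Sfrp2, 14.9-fold lower at 48 h than at 0 h, and the next that of Lgr4, 5.60-fold lower at 144 h.

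A probe set was called, or said to rise or fall, at a limma adjusted p under 0.05 (Benjamini-Hochberg over 45037 probe sets). By this rule 7 of the 21 probe sets rose and 0 fell (8 at an unadjusted p under 0.05) between 24 h before induction and 0 h. Over all probe sets 4.39% rose and 4.35% fell in that comparison. From 0.5 h to 6 h limma called 0 of the 21 at each time, and 0 to 4 had an unadjusted p under 0.05. Only Lgr4 was called at 9 h and 12 h, so 1 of 21 was called at any time up to 12 h, against 2.09% of all. At 24 h 6 had fallen and 0 risen (backgrounds 4.97% and 4.25%), with 11 at an unadjusted p under 0.05, and only 1 of the 6 calls was left without replicate 1 of 0 h. At 48 h 9 had fallen and 1 risen (10.4% and 8.35%), at 96 h 9 and 1 (13% and 10.9%), and at 144 h 11 and 2 (10.8% and 9.15%). The 11 fallen at 144 h were 4 of Sfrp1, 3 of Tcf7l2, 2 of Dkk3 and 1 each of Sfrp2 and Lgr4. The F-test over the 12 times called 11 of 21, against 28.2% of all probe sets. The 9 genes were chosen with earlier results of these data known, so the counts cannot test for an excess over these shares. The median difference of the 21 probe sets at 144 h was −0.35, that of all probe sets 0.02. The comparisons with 0 h share the same 3 arrays with each other and with the comparison before induction, so they are not separate evidence.

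**Figure D1:**
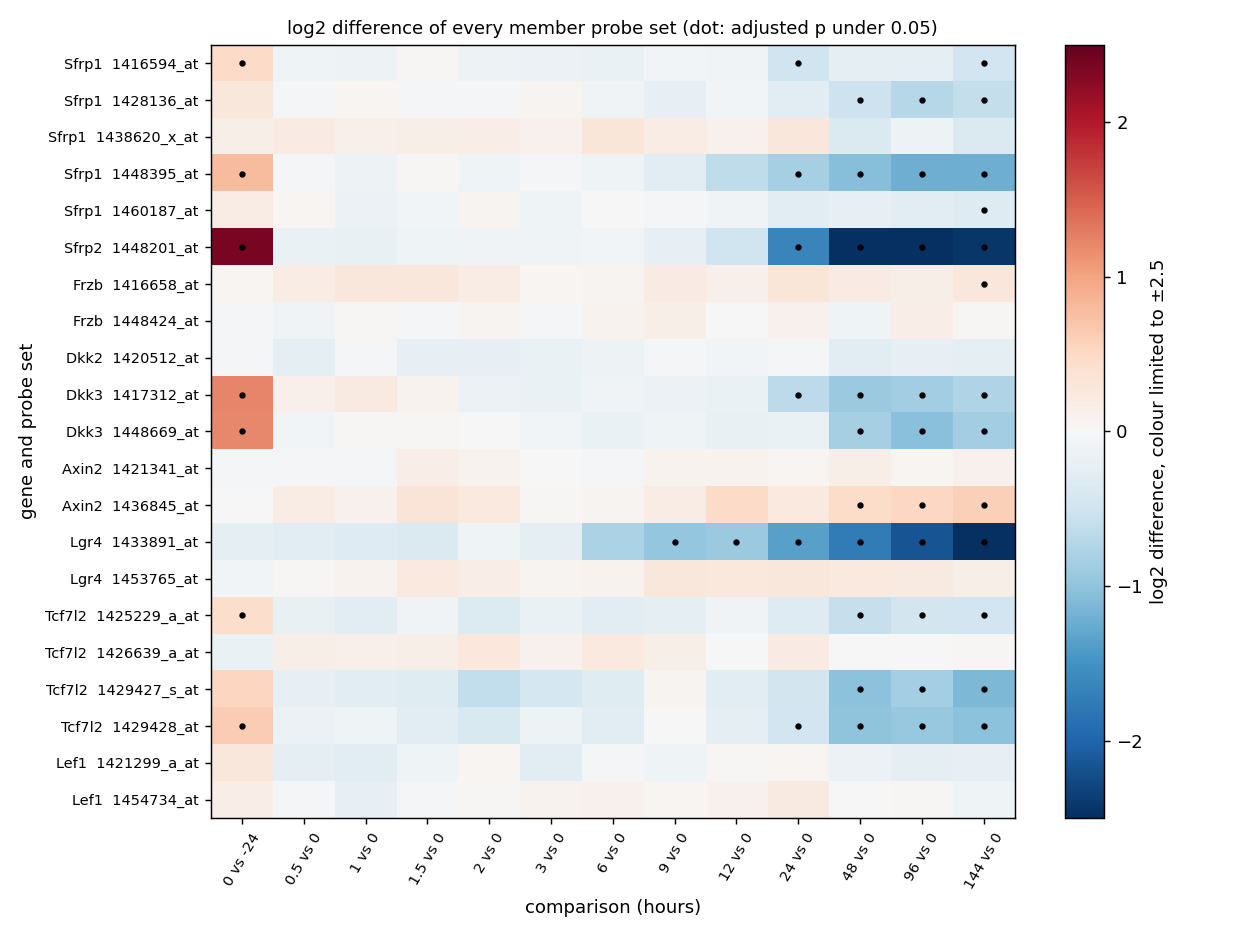
Log2 difference of each of the 21 probe sets (rows) in the comparison of 0 h with 24 h before and of each of 12 times with 0 h (columns). Red is higher and blue lower in the first-named group, colours stop at ±2.5, and dots mark calls at an adjusted p under 0.05. The dots lie in the first column and from 9 h on, with 13 of 21 rows dotted at 144 h.

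Sfrp2 encodes a secreted protein that binds Wnt proteins. Its probe set 1448201_at read 5.47, 7.07 and 5.93 in replicates 1 to 3 at 24 h before induction and 9.31, 8.52 and 7.76 at 0 h. All 0 h arrays lay above all earlier ones. The difference was 2.38 (SE 0.53, limma adjusted p = 0.00213, n = 3 arrays per group), or 5.19-fold. Within a replicate number the rise was uneven, since replicate 1 was the lowest array at 24 h before and the highest at 0 h. Group means then stayed between 8.03 and 8.47 from 0.5 h to 12 h.

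At 24 h Sfrp2 read 7.74, 6.79 and 6.10, and at 48 h 4.94, 4.70 and 4.27. It read 5.74, 4.57 and 4.98 at 96 h and 6.39, 5.95 and 5.95 at 144 h. From 24 h on, no array reached the lowest of the 0 h arrays. Against 0 h the differences at 24, 48, 96 and 144 h were −1.65, −3.90, −3.43 and −2.44 (SE 0.53 each, limma adjusted p = 0.0429, 6.44e-07, 4.19e-06 and 0.000582). The 48 h group was the lowest of all 16, and the mean at 144 h, 6.10 ± 0.25 (SD, n = 3), was close to the 6.16 ± 0.83 of the cells 24 h before induction. The later climb was not called: 144 h against 96 h differed by 1.00 (SE 0.53, limma adjusted p = 0.694), although the 3 arrays at 144 h all lay above the 3 at 96 h. The call at 24 h was lost on leaving out replicate 1 or 2 of 0 h or replicate 2 or 3 of 24 h (limma adjusted p 0.097 to 0.204), after quantile normalization (0.0507) and with a trended, robust spread (0.0607).

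The spread of Sfrp2 between arrays was large and ran with the replicate number. Its median SD within a group was 0.75, and the next largest among the 21 probe sets was 0.27, that of Sfrp1 1448395_at. Replicate 1 was the highest array in 13 of 14 untreated groups and replicate 3 the lowest in 11. Within a replicate number, 24 h minus 0 h was −1.57, −1.73 and −1.66 in replicates 1, 2 and 3 (SD 0.08), close together at that time. The differences spread more at 48 h, with −4.37, −3.82 and −3.49 (SD 0.44), and at 96 h, with −3.57, −3.95 and −2.78 (SD 0.60). A fit with a replicate block gave a limma adjusted p of 9.62e-05 at 24 h. The step from 12 h to 24 h, −1.15, was called only with the block (adjusted p = 0.0264 with it and 0.502 without). The step from 24 h to 48 h was −2.24 (SE 0.53, limma adjusted p = 0.0137), lost without replicate 1 of 24 h or replicate 3 of 48 h (0.134 and 0.0561).

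**Figure D2:**
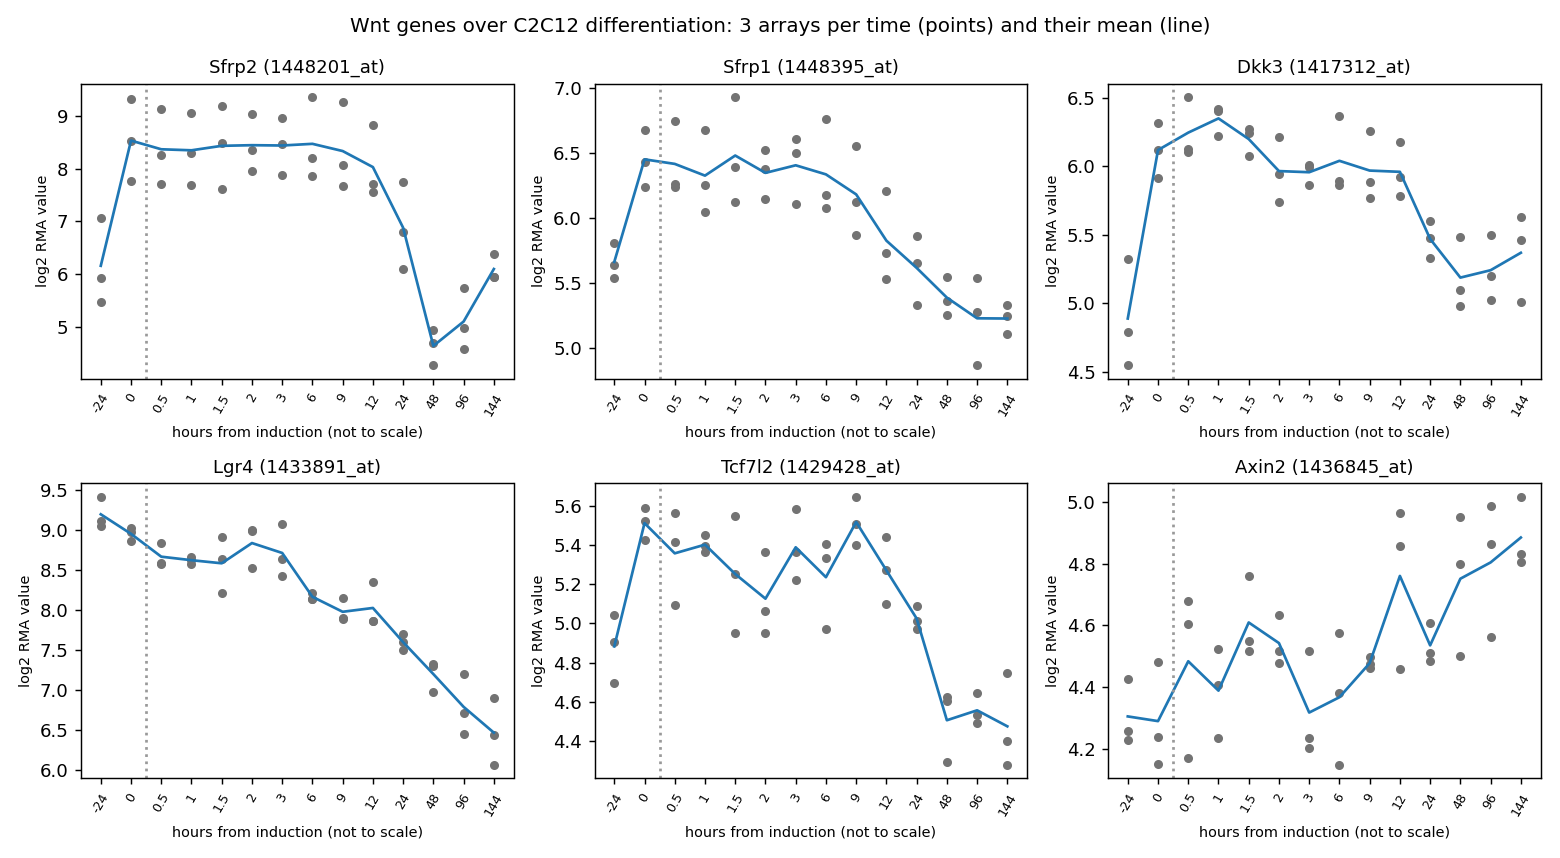
Log2 RMA values of 1 probe set each for Sfrp2, Sfrp1, Dkk3, Lgr4, Tcf7l2 and Axin2 at the 14 untreated times, with 3 arrays per time as points and their mean as a line; times are evenly spaced, not to scale, and the dotted line marks induction. Sfrp2 goes from 6.16 to 8.53 before induction and to 4.64 at 48 h, Lgr4 goes from 8.96 at 0 h to 6.47 at 144 h, and Axin2 from 4.29 to 4.88.

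Sfrp1, a second secreted Wnt-binding antagonist, moved in the same directions by smaller amounts. Its brightest probe set, 1448395_at, read 5.54, 5.81 and 5.64 at 24 h before induction and 6.68, 6.44 and 6.24 at 0 h. The groups did not overlap, with a difference of 0.79 (SE 0.21, limma adjusted p = 0.0126). This call was lost without replicate 1 of either group (0.0822 and 0.0982).

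After induction Sfrp1 1448395_at read 5.87, 5.66 and 5.33 at 24 h and 5.25, 5.11 and 5.33 at 144 h. All 6 of these arrays lay below the 0 h arrays. The differences at 24, 48, 96 and 144 h were −0.83, −1.06, −1.22 and −1.22 (SE 0.21 each, limma adjusted p = 0.00897, 0.000289, 2.99e-05 and 2.65e-05). The call at 24 h was lost without replicate 1 of 0 h or replicate 3 of 24 h (0.0576 and 0.0657), and the 3 later ones held with any 1 array left out. At 12 h the difference of −0.63 was called only with the replicate block (adjusted p = 0.0261 with it and 0.175 without).

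The other Sfrp1 probe sets followed less closely. Probe set 1428136_at fell by 0.52, 0.71 and 0.60 at 48, 96 and 144 h (SE 0.14 each, limma adjusted p = 0.00689, 0.000183 and 0.00138), the first of which was lost without replicate 1 of 0 h (0.0835). Over the 14 untreated group means it correlated with 1448395_at at r = 0.924. Probe set 1416594_at rose by 0.48 before induction and fell by 0.51 at 24 h and 0.49 at 144 h, with limma adjusted p = 0.0468, 0.0347 and 0.0225. Its first 2 calls were lost on leaving out any of 5 of the 6 arrays, all but replicate 3 of 0 h (0.0628 to 0.337), and that at 144 h without replicate 1 or 2 of 0 h or replicate 1 of 144 h (0.0591 to 0.18). The dim 1460187_at, at 3.14 at 0 h, fell by 0.32 at 144 h (limma adjusted p = 0.0422), lost on leaving out any array but replicate 2 of 144 h (0.0519 to 0.192), while its difference of −0.28 at 96 h (0.0705) was called with the replicate block (0.0315) and after quantile normalization (0.049). Probe set 1438620_x_at, whose name marks possible cross-hybridisation, was not called against 0 h at any time, and its step of −0.63 from 24 h to 48 h (0.0529) was called with the replicate block (0.0315).

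Dkk3, the divergent Dickkopf gene, was measured by a pair of probe sets that ran alike (r = 0.925 over 14 untreated group means). Probe set 1417312_at read 4.55, 5.33 and 4.79 at 24 h before induction and 6.32, 6.12 and 5.92 at 0 h. Probe set 1448669_at read 4.24, 5.06 and 5.02, then 6.18, 5.94 and 5.83. In both, every 0 h array lay above every earlier array. They rose by 1.23 and 1.21 (SE 0.18 each, limma adjusted p = 5.94e-06 and 1.1e-05), 2.35-fold and 2.31-fold.

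By 48 h Dkk3 1417312_at read 4.98, 5.48 and 5.10, and at 144 h 5.01, 5.63 and 5.46. All lay below the 0 h arrays. The mean at 144 h was 5.37 ± 0.32 (SD, n = 3), and that of 24 h before induction 4.89 ± 0.40. The differences from 0 h were −0.93, −0.88 and −0.75 at 48, 96 and 144 h for 1417312_at and −0.82, −1.04 and −0.87 for 1448669_at, with SE 0.18 each and limma adjusted p from 3.2e-05 to 0.00157. These 6 calls held with any 1 array left out. At 24 h the probe sets differed: 1417312_at fell by 0.65 (limma adjusted p = 0.0157, lost without replicate 1 of 0 h or replicate 2 of 24 h, at 0.0868 and 0.0807), while 1448669_at read 5.81 ± 0.13 against 5.98 ± 0.18 at 0 h. The step from 24 h to 48 h was called for 1448669_at, −0.65 with limma adjusted p = 0.0483, and lost on leaving out any array but replicate 2 of 48 h (0.0814 to 0.27). Sfrp2 and this probe set were the 2 of 21 called over any of the 4 steps between successive late times, against 4.94% of all probe sets.

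Frzb and Dkk2, the other antagonists, were dim throughout. Frzb 1416658_at ran from 3.22 to 3.57 over the untreated group means, and 1448424_at from 2.94 to 3.20. The highest single array of either was 3.76. Probe set 1416658_at read 3.22, 3.30 and 3.27 at 0 h and 3.41, 3.68 and 3.58 at 144 h, without overlap. It rose by 0.29 at 144 h (SE 0.11, limma adjusted p = 0.0489). This call was lost on leaving out any array but replicate 1 of 144 h (0.0766 to 0.229) and after quantile normalization (0.0515), and the other Frzb probe set differed by 0.03 (SE 0.10, limma adjusted p = 0.919). At 24 h the difference of 0.30 for Frzb 1416658_at (0.0674) was called with the replicate block (0.0392) and on the housekeeping scale (0.0443), where all arrays were centred on 17 housekeeping genes. Dkk2 1420512_at ran from 3.36 to 3.68 over the untreated group means and was not called in any comparison.

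Lgr4, the R-spondin receptor gene, was bright in growth medium and was lower than at 0 h from 9 h on. Probe set 1433891_at read 9.06, 9.42 and 9.12 at 24 h before induction and 9.02, 8.98 and 8.86 at 0 h, a difference of −0.24 (SE 0.19, limma adjusted p = 0.626). Its arrays were at 8.15, 7.90 and 7.90 by 9 h and at 7.70, 7.60 and 7.50 by 24 h, and at 144 h they read 6.91, 6.44 and 6.06. No array from 6 h on reached the 0 h arrays. In the order of the group means, the gaps from 9 h down to 24 h, from 24 h to 48 h and from 48 h to 96 h each exceeded the larger SD of the neighbours. The arrays of 96 h and 144 h overlapped. None of the 4 steps between successive times from 12 h to 144 h was called for Lgr4, with differences of −0.43, −0.40, −0.41 and −0.32 (SE 0.19 each, limma adjusted p 0.397 to 0.738), of which 3 had an unadjusted p under 0.05.

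Against 0 h, the differences of Lgr4 1433891_at at 9, 12, 24, 48, 96 and 144 h were −0.97, −0.93, −1.35, −1.75, −2.16 and −2.49 (SE 0.19 each). The limma adjusted p was 0.00712 at 9 h and 6.57e-13 at 144 h. The call at 9 h was lost without replicate 2 of 0 h (0.0559) and the call at 12 h without replicate 3 of 12 h (0.0632), while those from 24 h on held with any 1 array left out. At 6 h the difference was −0.79 (limma adjusted p = 0.0714), called with the replicate block (0.0107), after quantile normalization (0.0236) and in a fit of only the compared groups (0.0461). The differences within a replicate number at 24 h were −1.32, −1.38 and −1.36. The second Lgr4 probe set, 1453765_at, ran from 3.26 to 3.55 over the untreated group means, was not called in any comparison, and had r = −0.52 with the first, so the fall of Lgr4 rests on 1 probe set.

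Tcf7l2, a nuclear partner of β-catenin, was measured by 4 probe sets. Its brightest, 1429428_at, read 5.04, 4.91 and 4.70 at 24 h before induction and 5.59, 5.52 and 5.42 at 0 h. The groups did not overlap and differed by 0.63 (SE 0.15, limma adjusted p = 0.00384). It read 4.29, 4.62 and 4.61 at 48 h and 4.75, 4.40 and 4.28 at 144 h, all below the 0 h arrays. The differences from 0 h were −1.004, −0.95 and −1.03 at 48, 96 and 144 h (SE 0.15 each, limma adjusted p = 2.95e-06, 4.96e-06 and 9.47e-07), and they held with any 1 array left out. At 24 h it had fallen by 0.49 (limma adjusted p = 0.0326), a call lost on leaving out any 1 of the 6 arrays (0.0572 to 0.103). The step from 24 h to 48 h, −0.52, was not called in the main fit (limma adjusted p = 0.0583). It was called with the replicate block (0.0208), after quantile normalization (0.0294) and on the housekeeping scale (0.0331). Restricting the test to probe sets with a mean of at least 5 also called it (0.0325).

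Of the other Tcf7l2 probe sets, 1429427_s_at fell by 1.02, 0.85 and 1.13 at 48, 96 and 144 h (SE 0.22 each, limma adjusted p = 0.000672, 0.00335 and 0.000126). Over the 14 untreated group means it correlated with 1429428_at at r = 0.942. Probe set 1425229_a_at rose by 0.45 before induction and fell by 0.57, 0.46 and 0.48 at the same 3 late times, with limma adjusted p = 0.0499, 0.00403, 0.0179 and 0.0144. All 4 of its calls were lost without replicate 1 of 0 h (0.404, 0.0608, 0.172 and 0.162), where the rise became 0.29 and the differences at 48, 96 and 144 h −0.42, −0.31 and −0.33. Its call before induction was also lost without any 1 array of that time or replicate 3 of 0 h (0.0817 to 0.152), that at 96 h without replicate 1 or 3 of 96 h (0.0506 and 0.0883), and that at 144 h without replicate 2 of 144 h (0.0688). Probe set 1426639_a_at stayed between 3.93 and 4.20 in the untreated group means, with a difference of 0.03 (SE 0.11, limma adjusted p = 0.918) at 144 h.

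Lef1, the lymphoid member of the TCF and LEF factors, was not called in untreated cells. Probe set 1454734_at read 5.99, 5.67 and 5.87 at 0 h and 5.73, 5.70 and 5.77 at 144 h, which overlap. The difference was −0.11 (SE 0.14, limma adjusted p = 0.705), and its untreated group means ran from 5.63 to 6.07. The dimmer 1421299_a_at ran from 3.44 to 3.78 and differed by −0.20 (SE 0.18, limma adjusted p = 0.54) at 144 h.

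Axin2, the feedback gene, rose late in 1 of its 2 probe sets, 1436845_at. The untreated group means of that probe set ran from 4.29 to 4.88, so its signal over background is unknown. Probe set 1436845_at read 4.26, 4.23 and 4.43 at 24 h before induction and 4.24, 4.15 and 4.48 at 0 h, a difference of −0.02 (SE 0.13, limma adjusted p = 0.986). It read 4.50, 4.95 and 4.80 at 48 h, 4.86, 4.98 and 4.56 at 96 h, and 5.02, 4.80 and 4.83 at 144 h. All 9 late arrays lay above the 0 h arrays. It rose by 0.46, 0.51 and 0.59 at these times (SE 0.13 each, limma adjusted p = 0.0112, 0.0035 and 0.000784). The call at 48 h was lost without replicate 2 of 0 h or of 48 h (0.0695 and 0.108), and the others held with any 1 array left out. Within a replicate number the rise at 96 h was uneven, at 0.62, 0.83 and 0.08. At 12 h it read 4.46, 4.86 and 4.96, and the difference of 0.47 was called only with the replicate block (0.0324 with it and 0.0686 without). The dim probe set 1421341_at, between 3.16 and 3.39 in the untreated group means, differed by 0.12 (SE 0.10, limma adjusted p = 0.505) at 144 h.

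Cycloheximide keeps cells from making new proteins, so the comparison asks which RNA levels in early differentiation differ when protein synthesis is blocked. Lgr4 RNA was 3.91-fold lower with the drug at 3 h and was not called at 1 h. Axin2 was higher with the drug at 3 h on both scales, and Sfrp1 1448395_at was lower. Sfrp2, Dkk2 and the second Lgr4 probe set were not called at either time on either scale.

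Across all probe sets the median difference between treated and untreated cells was 0.18 at 1 h and 0.16 at 3 h as deposited, and −0.01 and −0.02 after quantile normalization. As deposited, 9 of 21 probe sets were called higher and 0 lower at 1 h, where 20.9% of all probe sets were higher and 0.564% lower, and 10 of the 21 had an unadjusted p under 0.05. After quantile normalization only 1 was called at 1 h, and it was lower, where 3.44% of all were higher and 2.39% lower. At 3 h 3 were higher and 2 lower as deposited (26.1% and 3.05% of all), and 1 higher and 7 lower after quantile normalization (9.58% and 9.63%). Counts of calls under the drug therefore turn with the scale, and only Axin2 1436845_at, Lgr4 1433891_at and Sfrp1 1448395_at were called at 3 h on both.

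Lgr4 1433891_at read 8.46, 9.10 and 8.99 with the drug at 1 h, overlapping the 8.63, 8.58 and 8.67 of untreated cells. At 3 h it read 6.79, 6.79 and 6.66 with the drug and 9.08, 8.64 and 8.43 without, far apart. The differences were 0.22 (SE 0.19, limma adjusted p = 0.423) at 1 h and −1.97 (SE 0.19, limma adjusted p = 2.29e-10) at 3 h. After quantile normalization they were −0.04 and −2.36. The drug effect at 3 h minus that at 1 h was −2.19 (SE 0.27, limma adjusted p = 9.53e-07), the only 1 of 21 called for this difference, against 2.56% of all probe sets. It held with any 1 array left out.

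**Figure D3:**
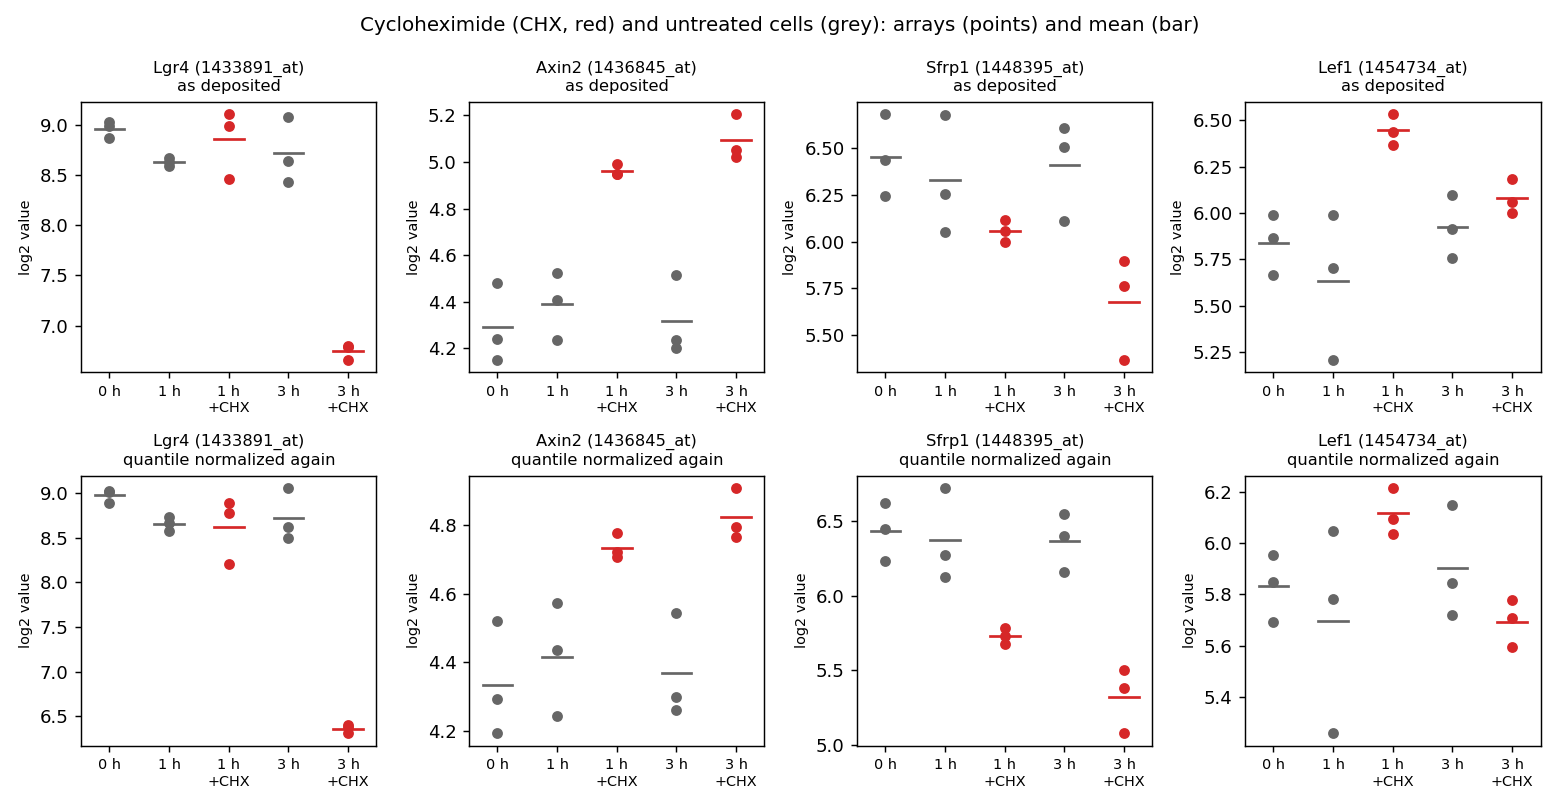
Log2 values of Lgr4, Axin2, Sfrp1 and Lef1 in cells at 0 h, 1 h and 3 h without (grey) and with cycloheximide (red), 3 arrays as points and their mean as a bar; the upper row is as deposited and the lower row after quantile normalization of all 48 arrays. Treated Lgr4 at 3 h lies near 6.75 (6.36 in the lower row) while the untreated 3 h arrays are above 8 in both rows, and the treated Lef1 mean at 3 h lies above the untreated mean in the upper row and below it in the lower.

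Axin2 1436845_at read 5.02, 5.21 and 5.05 with the drug at 3 h and 4.23, 4.20 and 4.52 without. The groups did not overlap, and the difference of 0.78 (SE 0.13, limma adjusted p = 1.93e-05) became 0.46 after quantile normalization (adjusted p = 0.0112). At 1 h it read 4.95, 4.95 and 4.99 with the drug against 4.41, 4.52 and 4.23, a difference of 0.57 (limma adjusted p = 0.00195) that became 0.32 (0.163) after quantile normalization. Sfrp1 1448395_at read 5.76, 5.89 and 5.37 with the drug at 3 h and 6.51, 6.61 and 6.11 without, again without overlap. Its fall of 0.73 (SE 0.21, limma adjusted p = 0.00866) was lost without replicate 2 of untreated or replicate 3 of treated cells (0.0513 and 0.068) and was −1.05 after quantile normalization (0.000121). At 1 h Sfrp1 1448395_at was called only after quantile normalization, at −0.65 (0.0452).

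Lef1 1454734_at read 6.37, 6.44 and 6.53 with the drug at 1 h and 5.99, 5.21 and 5.71 without. It was higher by 0.81 (SE 0.14, limma adjusted p = 5.44e-05) as deposited and by 0.42 (adjusted p = 0.0742) after quantile normalization, and at 3 h the differences were 0.16 and −0.21, neither called. All 4 Tcf7l2 probe sets were called higher at 1 h as deposited, by 0.33 to 0.66, and none after quantile normalization (limma adjusted p 0.163 to 0.732). The remaining calls as deposited were Sfrp1 1460187_at at both times (0.43 and 0.33), Axin2 1421341_at (0.28) and Lef1 1421299_a_at (0.58) at 1 h, and Frzb 1416658_at (0.36) at 3 h, none of them called after quantile normalization. Leaving out replicate 1 of treated cells at 1 h reduced the 9 calls there to 4, all but those of Axin2 1436845_at, Lef1 1454734_at, Tcf7l2 1425229_a_at and Tcf7l2 1429427_s_at being lost.

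Several of these 9 and 3 calls also rested on single arrays. Those of Axin2 1421341_at, Lef1 1421299_a_at, Tcf7l2 1426639_a_at and Tcf7l2 1429427_s_at at 1 h were lost on leaving out untreated replicate 2 or 3, 2, 1 and 2 respectively (0.0575 to 0.232), or a further treated array for Axin2 1421341_at (replicate 2), Tcf7l2 1426639_a_at and Tcf7l2 1429427_s_at (replicate 3), at 0.0823 to 0.248, with that of Tcf7l2 1429427_s_at down from 0.66 to 0.38. At 3 h Frzb 1416658_at was lost without untreated replicate 1 or treated replicate 2 (0.0949 and 0.0564). Sfrp1 1460187_at was lost there without replicate 2 or 3 of either group (0.0562 to 0.0764).

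After quantile normalization 5 further probe sets were lower with the drug at 3 h. They were Sfrp1 1416594_at (−0.59, limma adjusted p = 0.00746), Sfrp1 1428136_at (−0.57, 0.0035), Dkk3 1417312_at (−0.55, 0.0206), Dkk3 1448669_at (−0.62, 0.0195) and Tcf7l2 1429428_at (−0.48, 0.0127). As deposited their differences ran from −0.39 to −0.21 and none was called. Sfrp2 read 8.75, 7.998 and 7.17 with the drug at 3 h and 8.97, 8.47 and 7.88 without, which overlap, and differed by −0.47 as deposited (0.536) and −0.79 after quantile normalization (0.325).

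The wider pathway was followed through 94 further genes in 6 roles, of which 92 were measured by 211 probe sets. Among these, the ligand genes Wnt9a and Wnt10a and the target gene Fst rose. The target gene Ccnd1 and the receptor genes Fzd5 and Fzd6 fell. In all, 27 of the 211 probe sets had risen and 36 fallen at 144 h (9.15% and 10.8% of all probe sets), with a median difference of −0.00. At 96 h 29 had risen and 45 fallen (10.9% and 13% of all). By role, the probe sets risen and fallen at 144 h were 6 and 1 of 43 for ligands, 6 and 11 of 46 for receptors, 4 and 9 of 49 for the cytoplasmic relay, 1 and 7 of 21 for nuclear factors and 10 and 7 of 28 for feedback and target genes, all to be read against the same 9.15% and 10.8%. After quantile normalization the counts were 5 and 2 for ligands, 6 and 8 for receptors and 3 and 9 for the cytoplasmic relay. For nuclear factors they were 0 and 6, and for feedback and target genes again 10 and 7. The 12 other antagonist genes measured had 24 probe sets, of which 1 was called at 144 h, a fall, beside the same background.

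**Figure D4:**
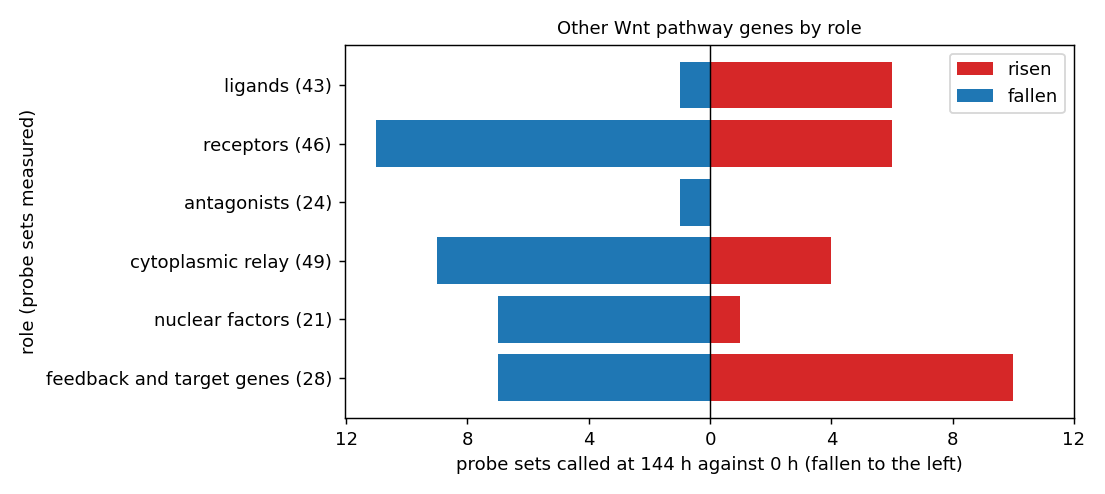
Number of probe sets of the other Wnt pathway genes called higher (red, right) or lower (blue, left) at 144 h than at 0 h, by role, with the probe sets measured in brackets. Of all probe sets on the array 9.15% had risen and 10.8% fallen; the risen probe sets run from none among the antagonists to 10 among the feedback and target genes, and the fallen from 1 to 11.

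On the sending side, Wnt9a 1436978_at went from 5.62 ± 0.34 at 0 h to 8.35 ± 0.20 at 144 h (SD, n = 3), a rise of 2.73 (SE 0.17, limma adjusted p = 2.12e-15). Porcn 1424220_a_at, which encodes the enzyme that attaches a lipid to Wnt proteins, rose by 3.07 (SE 0.26, 5.98e-12). Wnt10a rose by 1.36. In the same role Wls 1423825_at and Rspo2 1455893_at fell at 48 h, by 0.65 and 0.28 (limma adjusted p = 0.00885 and 0.0445). Both calls were lost on leaving out some single arrays (up to 0.0685 and 0.241). At 48 h 5 of 43 ligand probe sets had risen and 4 fallen. Among receptors, Lgr5, a relative of Lgr4, rose by 1.64 at 144 h (SE 0.16, limma adjusted p = 1.29e-10) from a dim 3.25, opposite in direction to Lgr4. Ror1 1429313_at and Fzd3 1421157_at rose by 1.09 at 144 h and 0.85 at 48 h. The receptor genes Fzd5, Fzd6 and Lrp6 fell by 1.76 at 96 h, 1.31 at 144 h and 1.25 at 96 h. Of the antagonists, Znrf3 1435608_at, a ligase that removes Frizzled receptors and is the enzyme R-spondins and Lgr proteins act on, fell by 1.44 at 96 h (SE 0.21, limma adjusted p = 1.3e-06).

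Inside the cell, the TCF factor gene Tcf7l1 fell by 1.18 at 144 h (SE 0.21, limma adjusted p = 4.28e-05), beside the fall of Tcf7l2 described above. Dvl1, whose protein passes the signal on from Frizzled, rose by 1.20 at 144 h, and the corepressor gene Tle2 fell by 1.12 at 48 h. Of genes often named as Wnt targets, Fst 1434458_at, which encodes the myostatin-binding follistatin, rose by 5.29 (SE 0.40, 2.84e-13) and Ccnd1 1417420_at, the cyclin of the G1 phase, fell by 3.35 (SE 0.19, 7.87e-17), so these targets moved in opposite directions at 144 h. With cycloheximide at 3 h, Fzd5 was higher by 2.74 as deposited and 2.51 after quantile normalization, Ror1 by 3.38 and 2.97, and Fzd7 lower by 1.19 and 1.56. Myc, another target gene, was higher by 4.06 (SE 0.22, limma adjusted p = 2.65e-17). Apart from those of Wls and Rspo2, the calls named in these sentences on the wider pathway held with any 1 array left out.

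The genes whose 14 untreated group means most resembled those of the 6 members called by the F-test were sought among 3569 genes that spanned at least 1 on the log2 scale. For Sfrp2 they were Naalad2 and Aldh3a1 (Pearson r = 0.991 and 0.990), for Sfrp1 Gpc6 and Enpp3 (0.985 and 0.983), and for Dkk3 Thra and Mfap2 (0.976 and 0.972). Gpc6 encodes a glypican, a cell-surface proteoglycan. For Lgr4 they were Mpzl1 and Dip2a (both 0.987), for Tcf7l2 Idh1 and Robo1 (0.969 and 0.966), and for Axin2, with a lower likeness, Tmem229b and Snx8 (0.879 and 0.866). These points share arrays and normalization, and the values are descriptions of 14 group means.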

How the data were processed

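RNA of C2C12 cells was measured on 48 arrays in 16 groups of 3. The values deposited are log2 intensities, which the authors made with RMA, per the submitters' processing notes; its version is not given in the sources used here. Scanner intensities were not used, so signal over background is unknown. Probe sets were named through the platform annotation (34945 with 1 symbol, 932 with several, 9160 with none) and 64 controls were left out.

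One limma model (limma 3.58.1, R 4.3.3) had 1 coefficient per group over all 48 arrays, with 32 residual degrees of freedom and default eBayes. Tests were two-sided, with Benjamini-Hochberg adjustment over 45037 probe sets, and called at an adjusted p under 0.05. Tables were handled in Python 3.11.15. Tested on simulated data for 144 h against 0 h with 45037 probe sets, the model recovered 90 of 100 changes of log2 size 1 and 99 of 100 of size 2, with 10 false calls. The simulated noise was independent between arrays, so it lacked the shared deviation of same-numbered arrays described below. The alternatives were 7 settings and leaving out each array. Named were all probe sets of the 9 genes and, from each role of the pathway list, the largest called changes without overlap between arrays.

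The 9 genes and the pathway and marker lists were chosen with earlier results of these data known. Replicate numbers mark successive passages, per the series design text. Same-numbered arrays deviated together (correlation over 0.1 in 49 of 57 pairs, median 0.297). All 3 pairs passed 0.1 at 0.5, 1.5, 3, 6, 9, 12, 24, 48 and 96 h against 0 h, over the steps from 12 to 96 h and for cycloheximide at 3 h. Values with the replicate number as a block are given there where they change a call. RefSeq promoters (GRCm38.p6) were searched for motifs on both strands.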

Additional observations from a re-analysis of the deposited data

Results flagged for a closer look

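The effect of cycloheximide on Lgr4 1433891_at differed between 3 h and 1 h by −2.19 on the log2 scale (SE 0.27, limma adjusted p = 9.53e-07, n = 3 arrays per group), tested as the difference of the treated minus untreated differences. All 3 treated arrays were below all 3 untreated arrays at 3 h, and the groups overlapped at 1 h. After quantile normalization of all arrays the value was −2.32 (adjusted p = 1.1e-08).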

How the results depend on the processing

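Of 65 calls of single probe sets, 36 held with each array of the compared groups left out and 29 were lost for at least 1, and none changed direction under any setting. Quantile normalization lost 15 of the 65, centring on housekeeping genes 11, a fit of only the compared groups 19 and a trended, robust spread 4; adjusting over probe sets with 1 symbol and the replicate block lost none. Among the 40 with a mean of at least 5, restricting the test to such probe sets (16740 of all) lost none.

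With the replicate block the number of member probe sets called was 3 in place of 1 from 0.5 h to 12 h, 4 in place of 2 over the late steps, and 3 in place of 1 for the cycloheximide effect at 3 h against 1 h; it moved no other count by over 1.5 times. Cycloheximide calls at 1 h, 9 as deposited, were 1 after quantile normalization, 1 on the housekeeping scale, 2 in a fit of only the compared groups and 2 among probe sets with a mean of at least 5. At 3 h the 5 calls became 8 after quantile normalization and 2 with the minimum of 5. For 3 h against 1 h the 1 call became 2 on the housekeeping scale and 3 with the minimum of 5. The minimum of 5 also left 7 of 13 calls at 144 h, since fewer member probe sets were tested, and gave 4 over the late steps, where a trended spread and a fit of only the compared groups each gave 1.

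Leaving out 1 array gave 4 to 6 calls for 0 h against 24 h before, 1 to 5 at 24 h (1 without replicate 1 of 0 h, 2 without replicate 2 or 3 of 24 h, 3 without replicate 2 of 0 h), 0 to 3 over the late steps (0 without replicate 1 of 24 h or replicate 3 of 48 h), 4 to 9 and 3 to 5 for cycloheximide at 1 h and 3 h, and 1 to 2 for their difference. The lowest count before induction, 4, came without replicate 1 of either group. On the housekeeping scale the median difference of all probe sets was 0.10 before induction (−0.00 as deposited), 0.02 and 0.23 for cycloheximide at 1 h and 3 h (0.18 and 0.16 as deposited) and 0.23 for their difference (−0.00 as deposited). The 3 arrays per group limit the precision, and the dim probe sets of Frzb, Dkk2, Axin2 1421341_at and Lgr4 1453765_at could not be set against background. Nor could other probe sets whose untreated group means all lay under 5, the level used for the markers. These were Axin2 1436845_at (4.29 to 4.88), Tcf7l2 1425229_a_at, 1426639_a_at and 1429427_s_at, Sfrp1 1460187_at and Lef1 1421299_a_at.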
